A study of Rattus norvegicus with 16 samples.

Results

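The neuropeptide genes Trh and Gal are described here, as measured in the left ventricle of rats after removal of kidney tissue. They are 2 of 16590 gene symbols listed in the 4 deposited tables, 1 table for each week of collection. They were chosen by their abundances, fold changes and calls in these same comparisons, so their levels and the authors' calls on them are a description and no test is added. Each gene had 1 locus in every table, and that locus carried no other symbol.

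The animals were male Sprague Dawley rats fed a 0.4% Dyets chow and operated on at 10 weeks of age. The operated group had 5/6 nephrectomy by excision (5/6Nx), which leaves little kidney tissue and is used as a model of chronic kidney disease, and the other group had sham surgery. Ventricles were taken 2, 4, 5 or 7 weeks later, giving 8 groups, each week with a sham group of its own. Each group held 2 libraries of pooled tissue, with 2 to 3 rats in a pool, so no animal was measured alone. The 16 libraries had 44.5 to 61.8 M reads, apart from 5/6Nx week 7 pool 2 with 23.6 M, and 94.0 to 94.9% of reads mapped. In the week 7 libraries 96 to 96.2% of bases had a quality of Q30 or above, against 93.2 to 94.5% at the other weeks. The deposited tables hold 1 abundance per group, in FPKM (fragments counted per length of transcript and per sequencing depth), with no value per library. The spread between the pools of a group is therefore not seen directly. It enters only through the authors' test, by the p and the adjusted p (called q here) of their deposited table. All 9 loci of a list of heart muscle cell markers were above 1 FPKM in a group at every week.

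Trh encodes the precursor of thyrotropin-releasing hormone, a tripeptide best known as the hypothalamic signal that makes the pituitary release thyrotropin; the peptide is also made outside the brain, and the rat heart is one of the places where it has been described. Gal encodes the precursor of galanin, a peptide that sympathetic neurons release beside noradrenaline and that, in the heart, is known to dampen acetylcholine release from vagal endings. Both precursors are cut by prohormone convertases, trimmed by carboxypeptidase and amidated to give the mature rat peptides, which act on G protein-coupled receptors.

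The stretch just before each annotated gene start is shown because both genes were called at the same week. The sequences are RefSeq's for the GRCr8 assembly, 250 bases each, on the minus strand and written 5′ to 3′ in the direction of transcription. Capitals mark every match to the letters TGACG (the half-site of a cAMP response element), AGGTCA (a nuclear receptor half-site) and TATAA, searched on both strands.
Trh, chr4:126301763-126302012: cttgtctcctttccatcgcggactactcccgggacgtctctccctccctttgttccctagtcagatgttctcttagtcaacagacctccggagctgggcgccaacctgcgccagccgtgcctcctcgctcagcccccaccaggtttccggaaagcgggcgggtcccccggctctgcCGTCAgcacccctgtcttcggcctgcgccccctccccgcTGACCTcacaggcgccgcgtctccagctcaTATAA
Gal, chr1:210084573-210084822: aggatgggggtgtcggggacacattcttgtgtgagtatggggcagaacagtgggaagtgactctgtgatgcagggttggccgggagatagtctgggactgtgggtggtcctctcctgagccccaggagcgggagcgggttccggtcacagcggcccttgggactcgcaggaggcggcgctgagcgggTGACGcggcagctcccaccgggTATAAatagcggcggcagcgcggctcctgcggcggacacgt
Both windows held TGACG once, 74 to 70 bases before the start of Trh (read there as CGTCA) and 63 to 59 bases before the start of Gal. Both also held TATAA once, 5 to 1 bases before the annotated start of Trh and 41 to 37 bases before that of Gal. AGGTCA was matched in Trh alone, 35 to 30 bases before the start and read as TGACCT. Of 33465 rat promoter windows of the same length, 18.2% held TGACG, 24.0% held TATAA and 14.1% held AGGTCA. Neither window held the full element TGACGTCA, of which TGACG is a part, nor TGANTCA (AP-1) nor TTCNNNGAA (STAT), which 1.59%, 6.34% and 7.67% of windows held.

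Trh was higher in 5/6Nx than in sham ventricles at all 4 weeks, between 2.00-fold and 8.84-fold, and the authors called the difference at week 7 only. Its level ranged between 2.33 and 12.03 FPKM in 5/6Nx groups and between 0.989 and 2.67 FPKM in sham groups. Its locus (XLOC_015268) spans chr4:189148806-189151256 in rn5. In whole tissue, more cells that make a transcript and more of that transcript per cell cannot be told apart, and this holds for every value that follows.

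At week 2, Trh was at 7.38 FPKM in 5/6Nx ventricles, against 2.67 FPKM in sham ventricles. The log2 fold change was 1.47 with a derived standard error of at most 0.36. This standard error was obtained by dividing the log2 fold change by the z value that matches the authors' two-sided p. Where p is 5e-05, the smallest the authors' deposited table gives, it is an upper bound for this conversion only. Trh's test statistic in the authors' deposited table was 3.75, 2.82 and 2.49 at weeks 2, 4 and 5, each smaller than the matching z value. Used in place of z, it would give larger standard errors for Trh at those weeks. At week 2 the smallest p gave Trh a q of 0.0504 in the authors' deposited table, just over the authors' threshold of 0.05. No locus was called at week 2: 0 of 14115 tested loci (0%) passed Cuffdiff's test, while 391 had an unadjusted p under 0.05, and Trh was among the 14 loci that shared the smallest q. Trh would be called at week 2 with q under 0.10, as 0.128% of tested loci would, or with the adjustment made over loci of at least 1 FPKM, as 0.104% would.

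At week 4, Trh was at 4.58 FPKM in 5/6Nx ventricles, against 2.29 FPKM in sham ventricles. The log2 fold change was 1.00 ± 0.30 (derived standard error), with p = 9.50e-04 and q = 0.144 in the authors' deposited table. At week 5 it was at 2.33 FPKM in 5/6Nx ventricles, against 0.989 FPKM in sham ventricles. That log2 fold change was 1.24 ± 0.43, with p = 0.0044 and q = 0.343 in the authors' deposited table. Neither week's difference was called, among 47 called of 14085 tested loci at week 4 (0.334%) and 75 of 13627 at week 5 (0.550%). By direction, 0.177% of tested loci were called higher and 0.156% lower at week 4, and 0.396% higher and 0.154% lower at week 5.

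At week 7, Trh rose to 12.03 FPKM in 5/6Nx ventricles, against 1.36 FPKM in sham ventricles. The log2 fold change was 3.14 with a derived standard error of at most 0.78, and the authors' deposited table gives p = 5e-05 and q = 0.00564. At that week 239 of 13659 tested loci (1.75%) were called, 196 of them higher (1.43%) and 43 lower (0.315%) in 5/6Nx. The week 7 table has 1 inner disagreement that touches its directions: in all 13639 loci that could be compared, the authors' test statistic has the sign contrary to the fold that the columns named 5/6Nx and sham give, and at the other weeks this was so in 0 loci. Directions here follow the column names, and Trh would be lower in 5/6Nx, at -3.14, if the statistic were followed. The direction of each other gene at week 7 would turn in the same way.

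**Figure D1:**
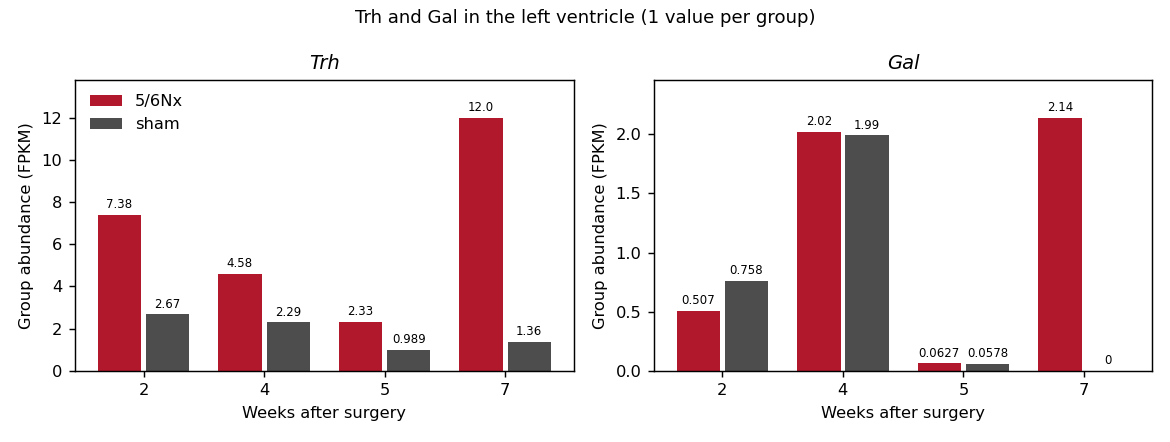
Abundance of Trh (left) and Gal (right) in FPKM by week after surgery, with red bars for 5/6Nx and grey bars for sham, 1 deposited value per group and no error available per library. Trh is above sham at each week (12.03 against 1.36 FPKM at week 7), while Gal is close to sham at weeks 4 and 5 and is listed at 0 in sham at week 7.

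The difference in Trh was far out in the distribution of log2 fold changes at each week. Among tested loci with a fold, 45 of 14104 (0.319%) had a larger rise at week 2. At week 4 the share was 0.988% (139 of 14075), and at week 5 it was 1.01% (137 of 13621). At week 7 it was 0.220% (30 of 13639) by the column names, and the same share would have a larger fall than Trh if the columns were exchanged. These shares describe how Trh came to be chosen and support nothing.

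The level of Trh was also placed differently among all tested loci. In 5/6Nx ventricles 47.4% of tested loci lay below Trh at week 2, against 23.3% in sham ventricles. At week 4 the shares were 35.3% in 5/6Nx and 21.1% in sham, and at week 5 they were 22.3% in 5/6Nx and 7.02% in sham. At week 7 Trh stood above 59.9% of tested loci in 5/6Nx and above 7.72% in sham. The week 7 shares would change places between 5/6Nx and sham if the columns were exchanged.

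**Figure D2:**
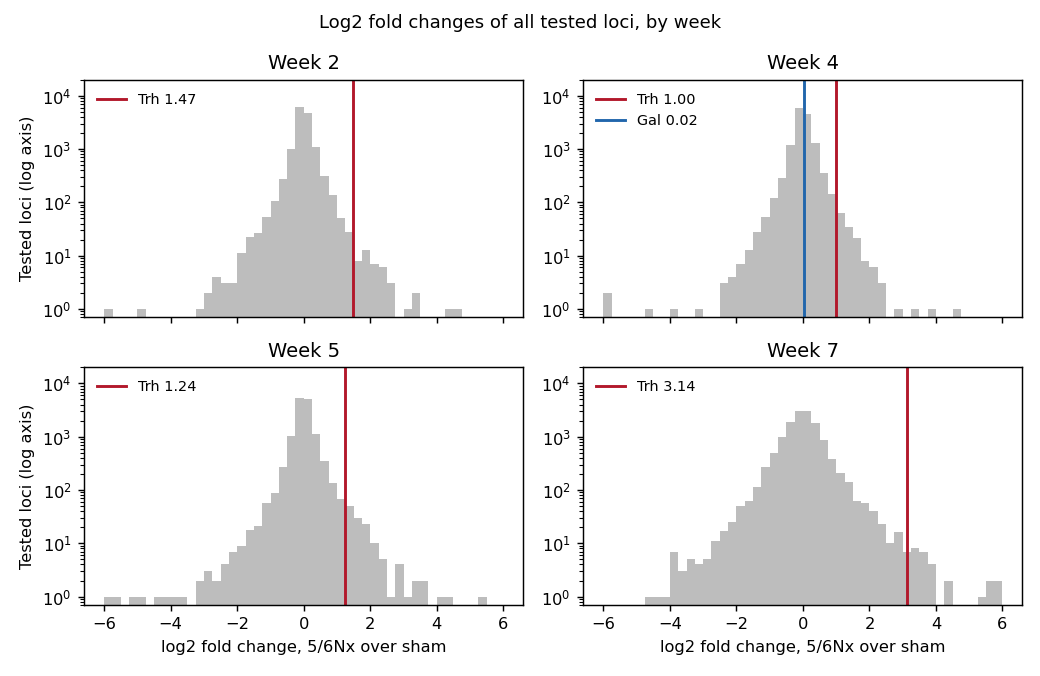
Number of tested loci (log axis) by log2 fold change of 5/6Nx over sham in 4 panels, 1 per week, with values beyond the axis placed in the outermost bins; the red line marks Trh and the blue line marks Gal where it was tested and had a fold. The red line lies in the right tail at each week (1.47, 1.00, 1.24 and 3.14) and the blue line lies near the middle at week 4 (0.02).

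The receptors of thyrotropin-releasing hormone and its main degrading enzyme were not tested by the authors at any week, and no other gene of its list was called. Trhr, the receptor, was between 0 and 0.0308 FPKM over the 8 groups, and Trhr2, the second receptor known in rodents, was listed at 0 in all 8. At week 7, Trhr was listed at 0 in 5/6Nx ventricles and was at 0.0159 FPKM in sham ventricles. Trhde, the membrane enzyme that breaks down the hormone, was at 0.286 FPKM in 5/6Nx and 0.484 FPKM in sham ventricles at week 7. It was at 0.346 FPKM in 5/6Nx and 0.344 FPKM in sham ventricles at week 2.

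Other enzymes of the hormone's making and breakdown were measured well above the receptors. Pgpep1, a cytosolic pyroglutamyl peptidase, was between 11.6 and 23.2 FPKM over the groups, and Prep, prolyl endopeptidase, between 9.72 and 13.1 FPKM. Qpct (listed as RGD1562284), glutaminyl cyclase, which forms the pyroglutamate at the front of the hormone, was at 5.54 FPKM in 5/6Nx and 2.80 FPKM in sham ventricles at week 7. That is a log2 fold change of 0.98 ± 0.38, with q = 0.219 in the authors' deposited table, and it was not called. Qpctl, the related cyclase of the Golgi, was at 2.38 FPKM in 5/6Nx and 1.94 FPKM in sham ventricles at week 7. The 4 tested genes of this list other than Trh had a median log2 fold change of 0.07 at week 2, 0.20 at week 4, 0.09 at week 5 and 0.11 at week 7. The medians over all tested loci were -0.0203, -0.0200, 0.00220 and -0.0115 at those weeks.

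Trh's course over the weeks was most like that of 5 named genes, by the Euclidean distance between their log2 fold changes at the 4 weeks among 9524 loci that were tested at every week with at least 1 FPKM in a group. They were Tnfrsf11b (distance 0.890), Postn (0.993), Ltbp2 (1.12), Timp1 (1.13) and Alox15 (1.14). The points share the same pools, so the likeness is a description. Tnfrsf11b encodes osteoprotegerin, a decoy receptor for RANKL; it was at 20.7 FPKM in 5/6Nx and 2.77 FPKM in sham ventricles at week 7, a log2 fold change of 2.90. Postn encodes periostin, a matricellular protein; it was at 205 FPKM in 5/6Nx and 18.3 FPKM in sham ventricles at week 7, a log2 fold change of 3.49. Ltbp2, a protein of the extracellular matrix, reached 2.81 on the log2 scale at week 7, and Timp1, an inhibitor of matrix metalloproteinases, reached 2.80. Alox15, a lipoxygenase, reached 3.85.

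All 5 were called at week 7, and the earlier weeks separated them. Postn was also called at weeks 4 and 5, where Trh was not, with log2 fold changes of 0.91 and 1.32. Ltbp2 and Alox15 were called at week 5, at 1.04 and 1.50. At week 2, when Trh stood at 1.47, Alox15 was at 1.80 while Tnfrsf11b, Postn, Ltbp2 and Timp1 were at 0.73, 0.54, 0.48 and 0.73. No difference between these genes and Trh was tested.

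Beside the natriuretic peptides, the usual markers of cardiac load, Trh had the larger log2 fold change at each week, by the column names at week 7. With the week 7 columns exchanged, Trh would be at -3.14 there, below the natriuretic peptides. Nppa (atrial natriuretic peptide) was at 0.35 at week 2, 0.44 at week 4, 1.08 at week 5 and 2.46 at week 7, and it was called at weeks 5 and 7. Its level at week 7 was 3362 FPKM in 5/6Nx and 613 FPKM in sham ventricles. Nppb (brain natriuretic peptide) was at 496 FPKM in 5/6Nx and 275 FPKM in sham ventricles at week 7, a log2 fold change of 0.85, and was called at no week. Of the 10 genes of the load response list, which holds both, 5 were called at week 7, all higher in 5/6Nx, beside 1.43% of all tested loci called higher. The differences between Trh and these genes were not tested either.

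**Figure D3:**
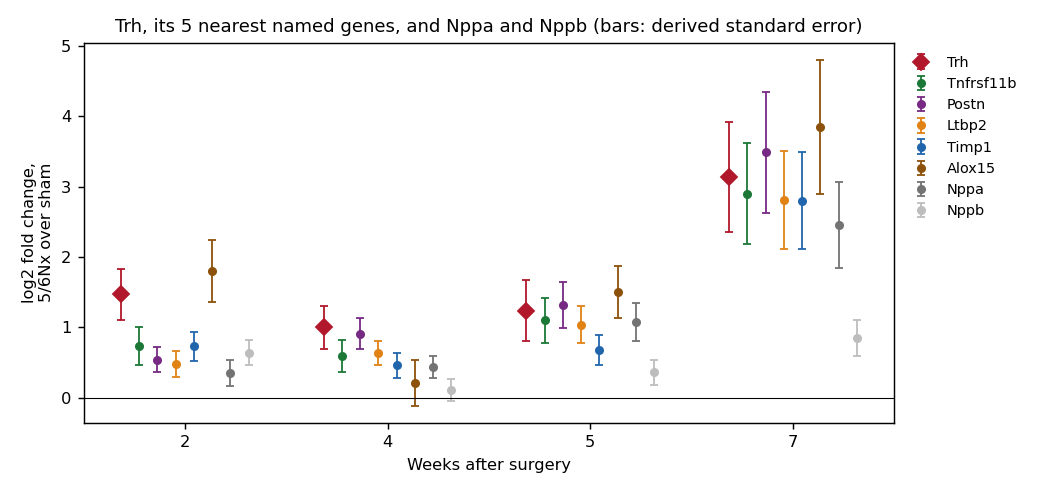
Log2 fold change of 5/6Nx over sham by week for Trh (red diamonds), the 5 genes nearest to it, and Nppa and Nppb. Bars are the standard error derived from p, an upper bound for that conversion only where p was the smallest deposited. At week 7 Trh (3.14) lies among its 5 neighbours (2.80 to 3.85) and above Nppb (0.85), and at week 2 Trh (1.47) and Alox15 (1.80) stand above the others.

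Gal gave no steady difference over the weeks, and its 1 call rested on a sham group in which it is listed at 0. Its locus (XLOC_002444) spans chr1:225520965-225525829 in rn5. The level ranged between 0.0627 and 2.14 FPKM in 5/6Nx groups and between 0 and 1.99 FPKM in sham groups.

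At week 2, Gal was at 0.507 FPKM in 5/6Nx ventricles and 0.758 FPKM in sham ventricles, a log2 fold change of -0.58 that the authors did not test. At week 4 it was at 2.02 FPKM in 5/6Nx and 1.99 FPKM in sham ventricles. That log2 fold change was 0.02 ± 0.42, with p = 0.961 and q = 0.999 in the authors' deposited table. At week 5 it was at 0.0627 FPKM in 5/6Nx and 0.0578 FPKM in sham ventricles, again not tested. The 2 groups were close at weeks 4 and 5.

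At week 7, Gal was at 2.14 FPKM in 5/6Nx ventricles and is listed at 0 in sham ventricles, so it has no fold. The authors' deposited table calls this difference, with p = 5e-05 and q = 0.00564. With 0.1 FPKM added to both groups the log2 ratio was 4.49, and with 1 FPKM added it was 1.65, so its size depends on the amount added. At that week 11 tested loci were listed at 0 in sham, 3 of them called, Gal included. The table gives no number as Gal's test statistic at week 7, so its sign cannot be set against the columns. If the columns were exchanged, Gal would be listed at 0 in 5/6Nx ventricles.

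Gal was a low transcript throughout. At week 4, 18.2% of tested loci lay below it in 5/6Nx and 18.4% in sham ventricles. At week 7, 18.5% lay below it in 5/6Nx, and none in sham. At week 2, 0.694% lay below it in 5/6Nx ventricles and 3.12% in sham ventricles. How the weeks were scaled to each other is not known here, so the ranges of Gal and Trh over the weeks are given as listed, and 5/6Nx is set against sham within a week.

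Galanin's receptors were almost absent from these tables. Galr1 was at 0.0182 FPKM in 5/6Nx ventricles at week 2 and listed at 0 in the other groups. Galr2 was listed at 0 in all 8 groups. Galr3 was at 0.0331 FPKM in sham ventricles at week 2 and listed at 0 elsewhere. Galp, the galanin-like peptide, reached at most 0.0905 FPKM, in 5/6Nx ventricles at week 7. None of these genes was at a level the authors tested.

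Over weeks 2, 4 and 5, where Gal has a fold, the nearest of 9525 loci were Clec7a (distance 0.118), Taf1d (0.137), RGD1306941 (0.152), Il1b (0.156) and Slc25a21 (0.157). Their log2 fold changes lay between -0.12 and 0.22 at weeks 4 and 5. Of these, Clec7a, a receptor of myeloid cells for beta-glucans, was called at week 7, at 8.88 FPKM in 5/6Nx and 1.90 FPKM in sham ventricles. With 0.1 FPKM added, so that week 7 counts too, 0 of the 5 genes remained; the nearest were then Mt2A, Spp1, Lox, Rgs1 and Mt1a. Among them Mt2A, a metallothionein, was at 109 FPKM in 5/6Nx and 7.98 FPKM in sham ventricles at week 7. For Trh the same change left all 5 genes in place.

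No gene of the peptide processing list was called at any week. That list holds enzymes that turn such precursors into peptides, granule proteins, and peptidases such as Mme, Dpp4 and Ace. Of its 23 measured loci, 14, 14, 13 and 12 were tested at weeks 2, 4, 5 and 7. The tested loci, precursor enzymes and peptidases together, had median log2 fold changes of 0.03, 0.06, -0.01 and 0.02. Pam, which amidates both thyrotropin-releasing hormone and galanin, was at 875 FPKM in 5/6Nx and 613 FPKM in sham ventricles at week 7. That was a log2 fold change of 0.52 ± 0.29, with q = 0.559 in the authors' deposited table. Cpe, a carboxypeptidase that trims peptide ends, was at 301 FPKM in 5/6Nx and 304 FPKM in sham ventricles at week 7.

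The convertases typical of neuroendocrine cells were low. Pcsk1 was at 1.09 FPKM in 5/6Nx and 0.266 FPKM in sham ventricles at week 7 and was tested at no week, and Pcsk2 reached at most 0.0333 FPKM in any group. Pcsk6, a broadly expressed convertase, was at 24.7 FPKM in 5/6Nx and 31.8 FPKM in sham ventricles at week 7. Of the granule proteins, Chga reached at most 0.0235 FPKM, Chgb 0.209 FPKM and Vgf 0.0192 FPKM.

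**Figure D4:**
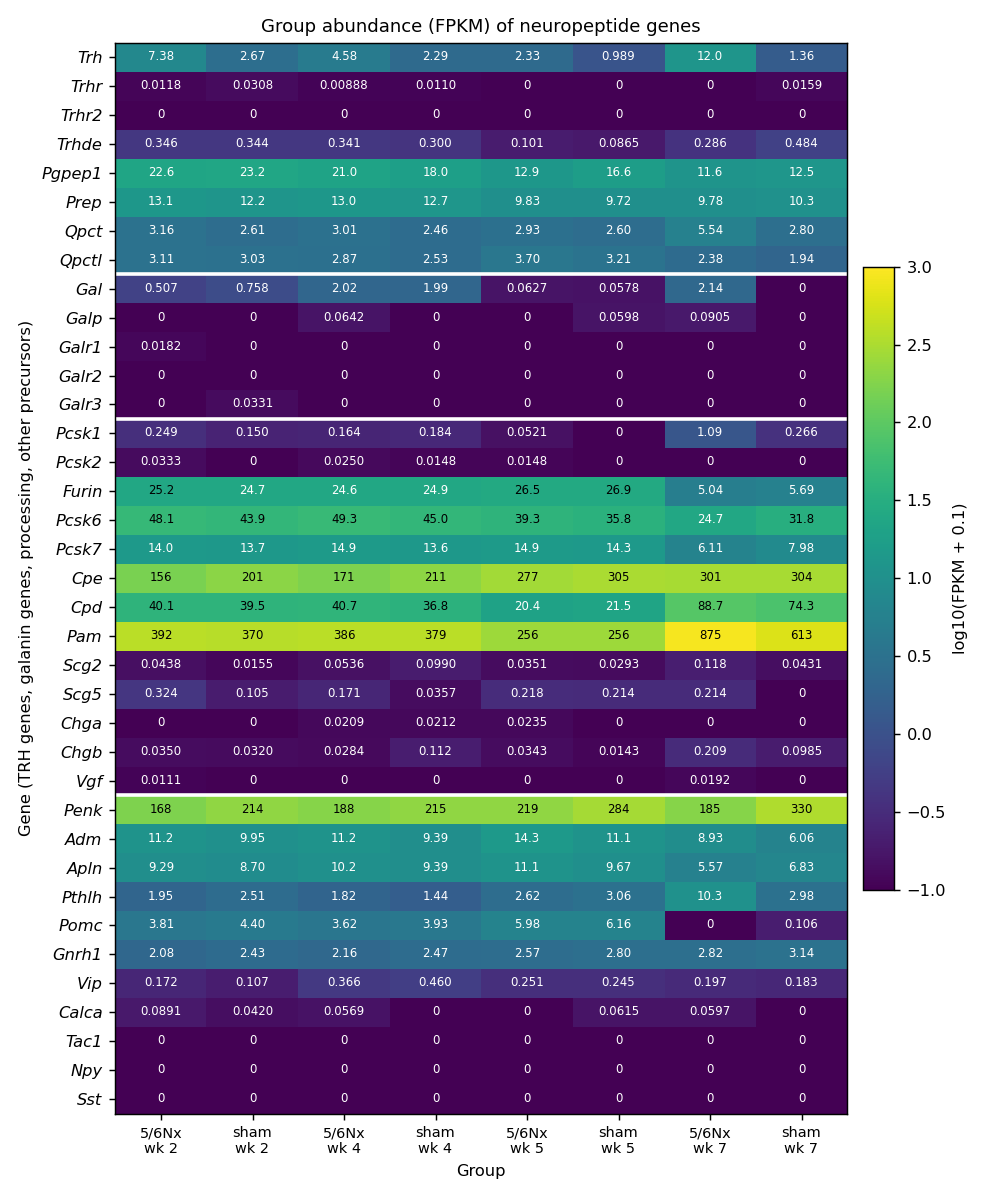
Abundance in FPKM (printed in each cell; colour is log10 of FPKM + 0.1) of the genes of thyrotropin-releasing hormone, galanin, peptide processing and 11 other precursors, with 5/6Nx left of sham at each week. The receptors Trhr, Trhr2, Galr1, Galr2 and Galr3 are at or near 0 in every group, while Pam, Cpe and Penk are above 100 FPKM in each.

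The level of Trh was also set beside a list of other neuropeptide precursors, which leaves out Nppa and Nppb, both far above Trh in every group. Of the list's 46 other precursors with a locus of their own, 1 lay above Trh in 5/6Nx ventricles at week 7 (Penk, the enkephalin precursor), against 5 in sham ventricles, by the column names. At week 2 there were 3 above it in 5/6Nx (Adm, Apln and Penk) and 4 in sham. At week 4 there were 3 in 5/6Nx and 5 in sham, and at week 5 there were 6 in each group. Gal had 5 precursors above it in 5/6Nx ventricles at week 7 and 14 in sham ventricles, and 5 above it in both groups at week 4. At week 5 it had 19 above it in 5/6Nx and 20 in sham. At week 7, 28 of the 46 were listed at 0 in both groups and 5 had at least 1 FPKM.

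Penk was at 185 FPKM in 5/6Nx and 330 FPKM in sham ventricles at week 7, a log2 fold change of -0.84 ± 0.27 with q = 0.0859 in the authors' deposited table. Measured against it within a group, Trh was 6.52% of Penk in 5/6Nx ventricles at week 7 and 0.412% in sham ventricles. At week 2 Trh was 4.39% of Penk in 5/6Nx and 1.24% in sham ventricles. Pthlh, the parathyroid hormone-related peptide, was at 10.3 FPKM in 5/6Nx and 2.98 FPKM in sham ventricles at week 7, a log2 fold change of 1.78 ± 0.58 with q = 0.0929 in the authors' deposited table. Npy and Tac1, precursors of nerve peptides like galanin, were listed at 0 in all 8 groups.

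Taking the lists of thyrotropin-releasing hormone, galanin, processing, other precursors and their receptors together, and leaving out Trh and Gal, 1 call was made at any week. It was Aplnr, the apelin receptor, at week 4, at 21.3 FPKM in 5/6Nx and 13.2 FPKM in sham ventricles (log2 fold change 0.70 ± 0.17, q = 0.0185 in the authors' deposited table). That is 1 of 43 tested loci (2.33%) at week 4, beside 0.334% of all tested loci. At week 7, 0 of 34 tested loci passed Cuffdiff's test, 4 of them with an unadjusted p under 0.05. At week 2 it was 0 of 43, with 2 such loci, and at week 5 it was 0 of 39, with 1.

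Markers of nerve were looked at because Gal is a peptide of sympathetic neurons, whose cell bodies lie outside the ventricle. Th, the first enzyme of noradrenaline synthesis, reached at most 0.0642 FPKM and Slc6a2, the noradrenaline transporter, at most 0.0799 FPKM in any group. At week 7, Slc6a2 was listed at 0 in 5/6Nx ventricles and Th was listed at 0 in sham ventricles. Dbh, which makes noradrenaline from dopamine, was at 1.82 FPKM in 5/6Nx and 0.718 FPKM in sham ventricles at week 7 (log2 fold change 1.34 ± 0.74, q = 0.525 in the authors' deposited table). Of 25 nerve loci, 8, 8, 9 and 5 were tested at weeks 2, 4, 5 and 7, and 0 of them were called. At week 7, 11 of the 25 were higher and 9 lower in 5/6Nx, with a summed level of 48.0 FPKM in 5/6Nx and 60.4 FPKM in sham ventricles. Hand2 and Ddc made up most of that sum and were then left out, after their values were seen. Without them the week 7 sum was 10.9 FPKM in 5/6Nx and 7.30 FPKM in sham ventricles, so this choice turned its direction. At weeks 2, 4 and 5 the sums without them were 14.3, 14.0 and 18.5 FPKM in 5/6Nx ventricles. In sham ventricles they were 11.8, 15.9 and 15.7 FPKM, so 5/6Nx was the lower at week 4. Of 10 markers of Schwann cells, the glia of these nerves, 7 were higher in 5/6Nx at week 7, and 0 of the 7 tested were called. Their sum was 106 FPKM in 5/6Nx and 77.6 FPKM in sham ventricles.

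Markers of some other cell types differed at week 7, beside both genes. All 8 macrophage markers were higher in 5/6Nx at each week, and their summed level at week 7 was 784 FPKM in 5/6Nx and 187 FPKM in sham ventricles. Over the 4 weeks that sum ranged from 267 to 784 FPKM in 5/6Nx and from 179 to 255 FPKM in sham groups. At week 7, 5 of the 8 were called (Cd68, Cd163, Mrc1, Lyz2 and Itgam), and none was at 0 in a group. The background for this and the other marker counts is 1.75% of all tested loci called at week 7, 1.43% higher and 0.315% lower. Of 10 fibroblast markers, 7 were higher in 5/6Nx at week 7, summing to 2592 FPKM in 5/6Nx and 1657 FPKM in sham ventricles, and Postn and Fn1 were called. All 9 loci of heart muscle cell markers were lower in 5/6Nx at week 7, summing to 42952 FPKM in 5/6Nx and 54809 FPKM in sham ventricles, with 0 called. Of 14 atrial and conduction markers, 9 were lower in 5/6Nx at week 7. Myl7 and Bmp10 were called lower and Nppa was called higher. Of 6 red cell markers, 5 were higher in 5/6Nx at week 7, summing to 3985 FPKM in 5/6Nx and 2141 FPKM in sham ventricles, with Alas2 and Hba-a2 called. Endothelial markers summed to 385 FPKM in 5/6Nx and 379 FPKM in sham ventricles at week 7, with 0 of 7 tested called. Lymphocyte markers summed to 24.2 FPKM in 5/6Nx and 17.7 FPKM in sham ventricles, with 0 of 3 tested called. Neutrophil and mast cell markers together summed to 53.1 FPKM in 5/6Nx and 69.0 FPKM in sham ventricles, with 0 of 4 tested called. The neutrophil markers S100a8 and S100a9 were lower in 5/6Nx at week 7, while the mast cell markers Cpa3, Kit and Tpsab1 were higher. Mpo, Elane and Mcpt1 were listed at 0 in both groups. Of 10 fat cell markers, 8 were lower and 1 higher in 5/6Nx at week 7, with 0 of the 5 tested called. Their sum of 1662 FPKM in 5/6Nx and 1694 FPKM in sham ventricles was mostly Fabp4, at 1561 FPKM in 5/6Nx and 1538 FPKM in sham ventricles. The part of these cell types in the levels of Trh and Gal was not tested, nor was that of the 23.6 M reads of 5/6Nx week 7 pool 2.

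Genes of the thyroid hormone axis, the pathway Trh heads in the brain, were mostly lower in the ventricle at week 7. Of 16 tested there, 12 were lower in 5/6Nx and 4 higher, with a median log2 fold change of -0.52 beside -0.0115 for all tested loci. The 9 loci of heart muscle cell markers were also all lower that week, with a median of -0.45. Myh6 and Pln are on both lists. The Myh6 locus also carries the symbol Myh7, so the 2 genes are not told apart, and the load response list counts it as Myh7. The part of heart muscle cells in the thyroid values was not tested. Dio2, the deiodinase that activates thyroid hormone, rose to 3.72 FPKM in 5/6Nx ventricles, against 0.982 FPKM in sham ventricles (log2 fold change 1.92, derived standard error at most 0.47, q = 0.00564 in the authors' deposited table). Ucp3, a mitochondrial carrier, fell to 1.38 FPKM in 5/6Nx ventricles, against 4.23 FPKM in sham ventricles (log2 fold change -1.61 ± 0.47, q = 0.0381 in the authors' deposited table). The receptors Thra and Thrb were at log2 fold changes of -0.46 and -0.50 at week 7 and were not called. Thrsp, a thyroid hormone-responsive gene of fat synthesis, was called lower at weeks 4 and 5. The log2 fold changes were -1.44 and -4.21, with derived standard errors of at most 0.35 and 1.04. In 5/6Nx ventricles it was at 2.51, 2.44 and 2.19 FPKM at weeks 2, 4 and 5. In sham ventricles it was at 5.07, 6.62 and 40.5 FPKM, so the large fold at week 5 came with a high sham level. At weeks 4 and 5 alike, 4 of 9 tested markers of fat cells were called lower as well, beside 0.156% and 0.154% of all tested loci. Called or not, 9 of the 9 were below sham at week 4 and 8 at week 5. The part of fat cells in the value of Thrsp was not tested. Trh itself was called at neither week.

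The loci next to Trh and Gal in rn5 were not called at any week. Zfyve20, whose locus is 29.5 kb from Trh, was at 5.62 FPKM in 5/6Nx and 5.53 FPKM in sham ventricles at week 7, a log2 fold change of 0.02. Mrps25 and Nr2c2 are listed with the same span, whose nearer edge lies 62.1 kb from Trh, so their own distances are not known here. They were at -0.04 and -0.13 on the log2 scale at week 7. Next to Gal, Mtl5 was 2.00 kb away and reached at most 0.0807 FPKM in any group. Cpt1a, the carnitine palmitoyltransferase of the liver type, lay 23.4 kb from Gal and was at 16.3 FPKM in 5/6Nx and 15.1 FPKM in sham ventricles at week 7. Unnamed loci 38.3 kb and 48.7 kb from Gal were at -0.12 and -0.11 on the log2 scale at week 7. An unnamed locus listed with the span of Mrps25 was tested at no week, and neither was Mtl5. With these, each locus within 100 kb of either gene is covered.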

How the data were processed

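Per the submitters' processing notes, the tools were TopHat2 2.0.10, Cufflinks 2.0.10, Cuffdiff and cutadapt, and the genome build was rn5. No settings were given with these names. The authors deposited 1 table per week with 1 abundance per group, taken here as FPKM because Cuffdiff gives that unit (the header says abundance), a test statistic (a score), and p-value and q-value columns. A further deposited table gives the count of reads and the percent of reads mapped per library. No value per library was in the week tables, so the planned limma model was not fitted and the authors' test stands. Its p-values rest on 2 pools per group. How that test modelled the spread between pools is not known here, since no settings were given.

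The log2 ratio of the deposited FPKM, 5/6Nx over sham, was computed with Python 3.11.15, numpy 2.4.6, pandas 2.3.3 and scipy 1.17.1, and the code was tested on simulated data. Called means marked significant by the authors at 0.05. Week 7 rows repeating a locus under several symbols were joined (23181 rows, 22862 loci). Of several loci with 1 symbol, that of the highest mean FPKM was kept. The 18 gene lists held 288 genes, of which 275 were matched by symbol or RefSeq (GRCr8) synonym. Named were Trh and Gal, the 5 nearest genes to each, all genes of their own lists, Nppa and Nppb, and up to 6 called genes per other list; fewer are printed here. Members, lists and motifs were chosen with earlier results of these data known. Both promoters were found in RefSeq's table.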

Additional observations from a re-analysis of the deposited data

How the results depend on the processing

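The alternatives added 0.1 or 1 FPKM, summed loci, centred on the median, moved the q threshold, adjusted over loci of at least 1 FPKM, or took the direction from the test statistic. Each gene has 1 locus, adding FPKM or centring leaves the deposited q as it is, and Gal was not tested at weeks 2 and 5, so a call could change only through the threshold or the set of loci adjusted over. Direction or call changed for Trh at week 2 (log2 fold change 1.47), which was called with q under 0.10 and also with adjustment over loci of at least 1 FPKM (adjusted p = 0.0479 by the Benjamini-Hochberg method, fewer loci being adjusted over), and Trh at week 7, which became -3.14 when the test statistic set the direction. That alternative gives no value for Gal at week 7, whose value there was the difference in FPKM. Called list genes at week 2 became 3 with q under 0.10 and 2 with adjustment over loci of at least 1 FPKM, and called loci became 18 and 14. With q under 0.01, called list genes were 0 at weeks 4 and 5, and called loci were 0 at weeks 4 and 5 and 137 at week 7; with q under 0.10, called loci at week 4 were 75. Leaving out a library was not possible, since the tables hold 1 value per group. No paired analysis was possible because the tables carry no column per library. The depth of 1 library, 5/6Nx week 7 pool 2, was the lowest, and Gal was under 1 FPKM in both groups at weeks 2 and 5, where the authors did not test it.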
